A study of Homo sapiens with 35 samples.

Results

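Day 8 was compared with day 6 in the established myeloma cell line RPMI-8226 while it was recovering from a pulse of the proteasome inhibitor carfilzomib. The comparison rests on the 5 libraries labelled Day 8 and the 5 labelled Day 6, which are 10 of the 35 libraries of a time course over days 0, 1, 2, 4, 6, 8 and 10. All libraries, those of day 0 included, carry the label of carfilzomib at 750 nM for 1 h, and the study's methods place the day 0 sampling before the drug was added. Both days compared here therefore come from cells that met the drug once and then grew without it. The study's methods divide the subcultures from 1 expanded culture of 1 line, while some of its legends call them 5 independent experiments. The account in the methods is followed here. By it, the spread between libraries and the p-values cover culture, library and sequencing, and not separate experiments. Cells were taken immediately before their medium was renewed, and cell density was reset on day 6 and again on day 8, so the day 8 cells had passed through a reset that the day 6 cells had not. Time after the drug and this handling cannot be told apart in the comparison.

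Cells that lack amino acids, or whose endoplasmic reticulum (ER) is loaded with unfolded protein, phosphorylate the translation factor eIF2α through the kinases GCN2 (EIF2AK4) and PERK (EIF2AK3). The transcription factor ATF4 is then translated and raises genes for amino acid synthesis and uptake, tRNA charging and cell death. Low sterol in the ER membrane releases the SREBP transcription factors, which raise the genes of cholesterol and fatty acid synthesis. Myeloma cells secrete antibody chains and depend on ER folding capacity and on the proteasome, which degrades misfolded ER proteins after their export to the cytosol, a process called ER-associated degradation (ERAD).

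Of 19665 protein-coding entries, 17999 had a count in at least 1 of the 35 libraries and were tested. The libraries held 7823941 to 9744769 counts on day 6 and 6519392 to 10230383 on day 8, of which 79.14% to 81.24% and 80.21% to 82.7% were protein coding. Values are CPM (counts scaled to a common total), relative to the TMM-normalized library size, and log2 fold changes are day 8 minus day 6. Their standard error (SE) was derived as the absolute log2 fold change over the square root of the F statistic of the edgeR test. Plasma cell transcripts summed to 8811 to 9964 CPM on day 6 and 7859 to 9472 CPM on day 8. Lists of markers of T and NK cells, B cells, myeloid cells, stroma and erythroid cells had 0 of 30 members past Q ≤ 0.05 by edgeR (3 at an unadjusted p under 0.05, 0 with DESeq2). The members without a count in these 10 libraries were CD3D, MPO, S100A8, FCGR3A, VWF, COL1A2, LUM and HBB. All other members had counts, and the B cell list had no member without one. Summed levels of the markers lay between 83.3 and 107 CPM for B cells, 12.2 and 17.6 for T and NK cells, 10.2 and 16.03 for myeloid cells, 3.73 and 7.93 for stroma and 2.35 and 5.08 for erythroid cells over both days. Replicates 3 and 4 of day 8 stood apart from the other 3 libraries of that day in the genes known to respond to low oxygen, with list scores (mean log2 CPM over members) of 5.41 and 5.35 against 5.91 to 6.05, and in NF-κB genes, with 4.61 and 4.61 against 4.84 to 4.92. Where a call was lost without both of them, a choice made after seeing the data, this stands beside it.

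The transcriptome differed little between the days, and most of the difference was smaller than 2-fold. At Q ≤ 0.05 (edgeR quasi-likelihood test, Benjamini–Hochberg adjustment over all 17999), 186 transcripts (1.03%) were higher on day 8 and 275 (1.53%) were lower. Of these 461 (2.56%), 438 (95%) had a fold change of at most 2, and the median absolute log2 fold change was 0.33 for the higher and 0.37 for the lower ones. With the additional cutoff of a fold change above 2, 11 transcripts (0.0611%) were higher and 12 (0.0667%) lower. Every day 8 library lay above every day 6 library for 260 transcripts (1.44%), and below for 353 (1.96%). These included 123 of the 186 and 199 of the 275 called at Q ≤ 0.05. At an unadjusted p under 0.05 (edgeR) were 2438 of the 17999. DESeq2, which gave an adjusted p to 10321, called 391 transcripts higher and 347 lower, so which direction held more calls changed with the method. With RLE size factors, 250 of the 496 calls by edgeR were lower, so falls still outnumbered rises, by a small margin. In bulk RNA such as this, fewer cells of a type and less RNA per cell cannot be told apart.

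**Figure D1:**
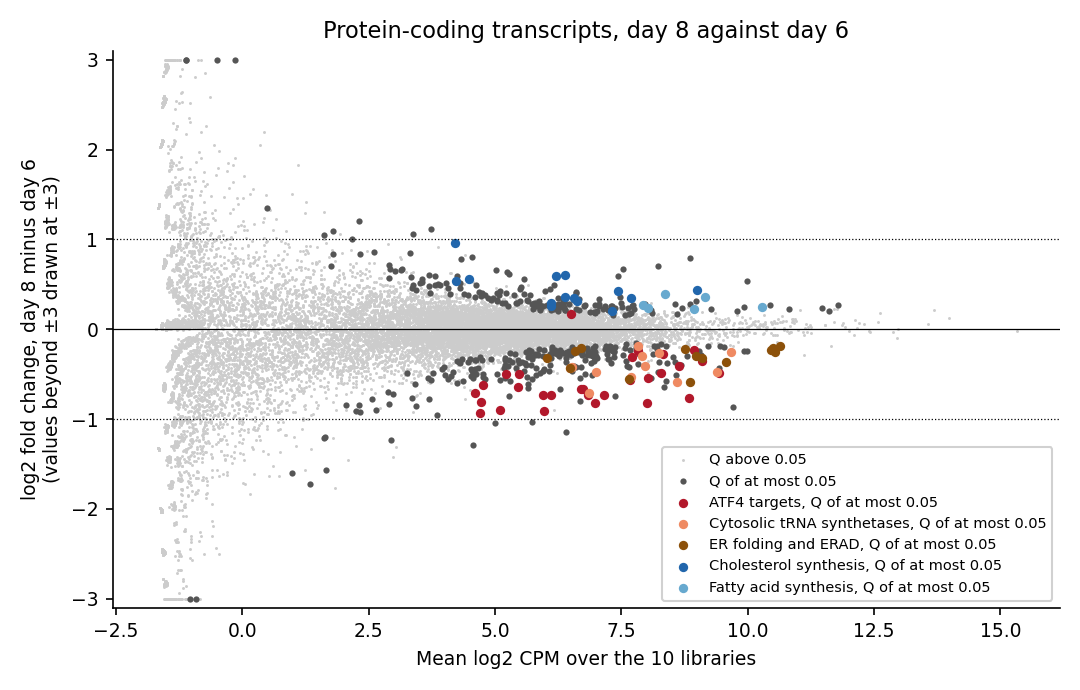
Log2 fold change of day 8 minus day 6 (y axis) against mean log2 CPM over the 10 libraries (x axis) for the 17999 transcripts tested, with dotted lines at a 2-fold change. The 461 dark or colored points passed Q ≤ 0.05 by edgeR's quasi-likelihood test, and colored members of the ATF4, tRNA synthetase and ER lists lie below 0 apart from 1, while colored members of the sterol and fatty acid lists lie above 0.

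Most measured targets of ATF4 fell. Of 39 measured ATF4 targets, 28 fell and 1 rose at Q ≤ 0.05 by edgeR. Of all transcripts tested, 1.53% were called lower and 1.03% higher. The median log2 fold change of the targets was −0.54, against 0 over all transcripts tested. ATF4 itself (chromosome 22, 39519695 to 39522683 in GRCh38) was at 773, 852, 817, 783 and 882 CPM in replicates 1 to 5 of day 6 and at 552, 637, 569, 569 and 608 CPM in those of day 8. All 5 day 8 libraries were below all 5 day 6 libraries, and ATF4 fell by 0.48 on the log2 scale (SE 0.05, adjusted p = 4.34e-08, edgeR). With each of the 10 libraries left out in turn, 26 to 29 members fell, and without both replicates 3 and 4 of day 8, a choice made after seeing the data, 23 did.

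ASNS, the asparagine synthetase and the standard reporter of ATF4 activity, is located on chromosome 7 (97851677 to 97872542). It was at 309, 329, 345, 328 and 395 CPM on day 6 and at 194, 219.6, 192, 165 and 196 CPM on day 8. The lowest day 6 library (309 CPM) was above the highest day 8 library (219.6 CPM), and the log2 fold change was −0.82 (SE 0.06, adjusted p = 2.4e-11, edgeR). The stretch of its promoter shown here holds the letters TGATGNAA, with which amino acid response elements bound by ATF4 are written. These letters, in either orientation, were searched in RefSeq promoters (GRCh38.p14) from 250 bases before to 50 bases after the start site. They stood in 3.67% of all 27305 promoters and in 2.28% of the 14063 promoters matched to tested transcripts. Among promoters of transcripts called lower, 19 of 211 (9.0%) held them, and among those called higher, 1 of 144 (0.694%). In the ATF4 list 6 of 32 matched promoters held the letters, 3 of 24 among members past Q and 3 of 8 among the others. In the list of cytosolic tRNA synthetases, which couple each amino acid to its tRNA, 6 of 13 matched promoters held them, and all 6 belonged to transcripts that fell. Below are ASNS and those 6, on the gene's strand from 5′ to 3′, with the matching letters in capitals (in AARS, MARS, TARS, CARS and IARS in the opposite orientation, TTGCATCA). The windows are chr7:97872444-97872516 (minus strand) for ASNS, chr16:70289661-70289733 (minus strand) for AARS, chr12:57488024-57488092 (plus strand) for MARS, chr5:33440927-33440989 (plus strand) for TARS, chr11:3057399-3057465 (minus strand) for CARS, chr9:92293678-92293750 (minus strand) for IARS and chr18:57621812-57621862 (minus strand) for NARS. A match describes the letters and does not show that a factor was bound.
ASNS: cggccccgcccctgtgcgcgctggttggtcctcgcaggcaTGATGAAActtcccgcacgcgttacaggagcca
AARS: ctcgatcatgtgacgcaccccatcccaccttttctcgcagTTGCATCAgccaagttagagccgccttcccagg
MARS: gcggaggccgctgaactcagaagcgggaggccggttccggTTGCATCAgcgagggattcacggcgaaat
TARS: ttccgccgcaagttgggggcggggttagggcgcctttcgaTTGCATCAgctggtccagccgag
CARS: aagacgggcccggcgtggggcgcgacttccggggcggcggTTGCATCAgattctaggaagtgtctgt
IARS: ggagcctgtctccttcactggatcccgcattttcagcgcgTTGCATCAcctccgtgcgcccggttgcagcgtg
NARS: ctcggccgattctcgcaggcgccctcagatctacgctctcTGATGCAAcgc

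The 7 printed transcripts were chosen as holders of the letters that had fallen, so their falls are no result about the letters. In the ATF4 list the letters also stood in SLC3A2 and SLC7A1, which fell. They stood too in ATF3 (log2 fold change −0.33), CHAC1 (−0.45) and FGF21 (2.07, from few counts), which did not pass. AARS, which charges alanine tRNA, went from 744, 812, 797, 761 and 858 CPM on day 6 to 589.8, 660.5, 536, 478 and 600.3 CPM on day 8, without overlap, with a log2 fold change of −0.47 (SE 0.07). For MARS, the methionine enzyme, the values were 242, 248, 231, 237 and 279.8 CPM and 168, 192, 163, 149 and 186 CPM, also without overlap (−0.53, SE 0.07). CARS, IARS and NARS, which charge cysteine, isoleucine and asparagine tRNAs, fell by 0.43, 0.30 and 0.27 on the log2 scale (SE 0.08, 0.04 and 0.05), each without overlap between the days. CARS did not pass without both replicates 3 and 4 of day 8 (adjusted p = 0.0997, edgeR). TARS, the threonine enzyme, ranged from 84.1 to 120.5 CPM on day 6 and from 71.8 to 86.9 CPM on day 8. Its fall of 0.43 on the log2 scale overlapped between the days, and it no longer passed without replicate 5 of day 6, without replicate 4 of day 8 or without both replicates 3 and 4 of day 8. TARS, CARS, AARS, IARS, MARS, NARS and ASNS were picked for their promoter letters after their values had been seen.

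Altogether 12 of the 20 cytosolic tRNA synthetase transcripts fell and 0 rose at Q ≤ 0.05 by edgeR (1 higher at an unadjusted p under 0.05, 0 with DESeq2), with a median log2 fold change of −0.26 against 0 over all transcripts. The share called over all transcripts tested was 1.53% lower and 1.03% higher. In 11 of the 20, all day 8 libraries were below all day 6 libraries, against 1.96% of all transcripts tested. WARS, the tryptophan enzyme, had the largest fall, from 148 ± 10.5 CPM to 90.8 ± 13.5 CPM (SD, n = 5), a log2 fold change of −0.70 (SE 0.08, adjusted p = 1.27e-07, edgeR). GARS, which charges glycine tRNA, was at 434, 483, 475, 457 and 527 CPM on day 6 and 287, 357, 318, 272 and 342 CPM on day 8. SARS, the serine enzyme, was at 138, 164, 151, 141 and 163 CPM and 102, 125, 109.8, 88.5 and 117 CPM. Both separated the days completely, with log2 fold changes of −0.59 and −0.48 (SE 0.07 and 0.07), and were chosen after their values were seen. The 8 synthetases that did not pass lay between −0.08 (DARS) and 0.15 (FARSA) on the log2 scale. QARS, the glutamine enzyme, was at 262 ± 14.2 CPM on day 6 and 262 ± 17.5 CPM on day 8, a log2 fold change of 0.00 (SE 0.07). XPOT, the exporter of tRNA from the nucleus, fell by 0.47 on the log2 scale (SE 0.05, adjusted p = 2.02e-08, edgeR). Leaving out each library in turn gave 10 to 12 synthetases that fell, and leaving out both replicates 3 and 4 of day 8 gave 8.

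**Figure D2:**
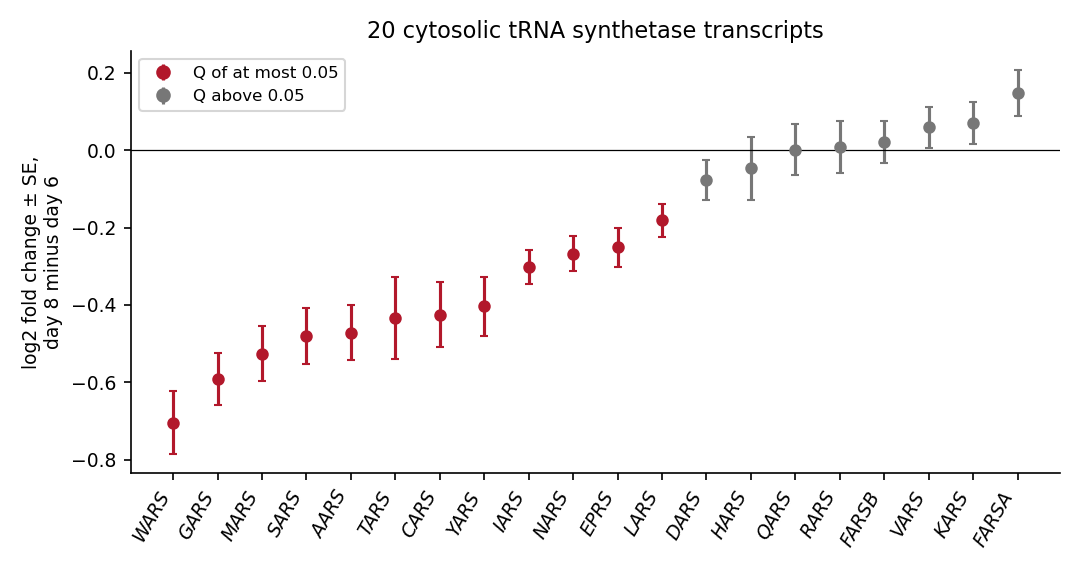
Log2 fold change of day 8 minus day 6 with its SE, derived from the F statistic of the edgeR test (y axis). The x axis holds the 20 cytosolic tRNA synthetase transcripts tested, in order of the fold change. The 12 red points passed Q ≤ 0.05 and lie between −0.70 and −0.18, and the 8 gray points did not pass and lie near 0.

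Among the ATF4 targets, genes of serine, one-carbon and cysteine synthesis fell. PHGDH and PSAT1 catalyze the opening steps of serine synthesis. PHGDH was at 99.8, 72.2, 63.6, 79.7 and 120.1 CPM on day 6 and at 56.9, 56.1, 44.2, 36.8 and 37.9 CPM on day 8. PSAT1 was at 142, 167, 172, 168 and 194 CPM and at 98.7, 113, 89.2, 73.6 and 102 CPM. Neither overlapped between the days, and their log2 fold changes were −0.91 (SE 0.17) and −0.82 (SE 0.09). The mitochondrial folate enzyme MTHFD2 fell from 249 ± 22.2 CPM to 168 ± 9.25 CPM, a log2 fold change of −0.56 (SE 0.06). CBS and CTH, which convert homocysteine to cysteine, fell by 0.73 and 0.93 on the log2 scale (SE 0.07 and 0.14), with adjusted p of 3.59e-10 and 2.07e-05 by edgeR. PCK2, which makes phosphoenolpyruvate in mitochondria, fell by 0.73 (SE 0.09). ASS1, the argininosuccinate synthetase of arginine synthesis, is not in the list and was among the 10 falls of smallest p. It was at 975, 1157, 1115, 1061 and 1374 CPM on day 6 and 569.7, 753, 586, 558 and 646 CPM on day 8, without overlap (−0.87, SE 0.08, adjusted p = 3.59e-10, edgeR). PHGDH, PSAT1 and PCK2 were chosen after their values were seen. An exception was ALDH18A1, the enzyme that commits glutamate to proline synthesis, which rose by 0.18 on the log2 scale (SE 0.05, adjusted p = 0.0347, edgeR). It was at 84.8, 80.5, 83.4, 91.5 and 85.4 CPM on day 6 and 94.99, 96.4, 96.3, 95.6 and 97.5 CPM on day 8, and did not pass without replicate 2 or 3 of day 6, without replicate 3 of day 8 or without both replicates 3 and 4 of day 8.

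Amino acid transporters were among the targets that fell. SLC7A11, which imports cystine, was at 88.8, 90.2, 89.5, 81.9 and 96.8 CPM on day 6 and 62.7, 56.6, 50.5, 52.4 and 46.5 CPM on day 8. The glycine transporter SLC6A9 was at 38.8, 49.97, 49.01, 42.7 and 54.6 CPM and 28.3, 32.2, 21.8, 18.8 and 24.9 CPM. Neither overlapped, and they fell by 0.73 (SE 0.09, adjusted p = 1.6e-07) and 0.89 (SE 0.11, adjusted p = 7.05e-07) on the log2 scale by edgeR. SLC3A2, the heavy chain that pairs with SLC7A11 and other light chains, fell by 0.49 (SE 0.07). The glutamine carrier SLC1A5 fell by 0.40 (SE 0.06), and SLC7A1, which carries arginine and lysine, by 0.31 (SE 0.05). All 5 transporters separated the days completely and passed with each library left out in turn.

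Several feedback and death genes of the response fell as well. TRIB3, an inhibitor of AKT and of ATF4, was at 45.8, 58.02, 57.7, 48.02 and 64.2 CPM on day 6 and 38.1, 42.4, 29.4, 27.8 and 37.3 CPM on day 8. PPP1R15A, the phosphatase subunit that reverses eIF2α phosphorylation, was at 29.9, 35.5, 34.1, 28.2 and 27.3 CPM and 15.5, 20.7, 18.8, 17.6 and 21.8 CPM. Their log2 fold changes were −0.64 (SE 0.10) and −0.71 (SE 0.11), without overlap, and both were chosen after their values were seen. DDIT3 (CHOP), which promotes apoptosis, fell by 0.62 (SE 0.13), and SESN2, a leucine sensor that restrains mTORC1, by 0.66 (SE 0.10). DDIT3 did not pass without both replicates 3 and 4 of day 8 (adjusted p = 0.0938, edgeR). CHAC1, which degrades glutathione, was at 22.2 ± 2.13 CPM on day 6 and 16.2 ± 1.895 CPM on day 8 without overlap, but did not pass (adjusted p = 0.0854, edgeR). The eIF2α kinases did not pass either. EIF2AK4 had a log2 fold change of −0.12 (SE 0.06, adjusted p = 0.353, edgeR) and EIF2AK3 one of −0.20 (SE 0.06, adjusted p = 0.0985, edgeR).

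**Figure D3:**
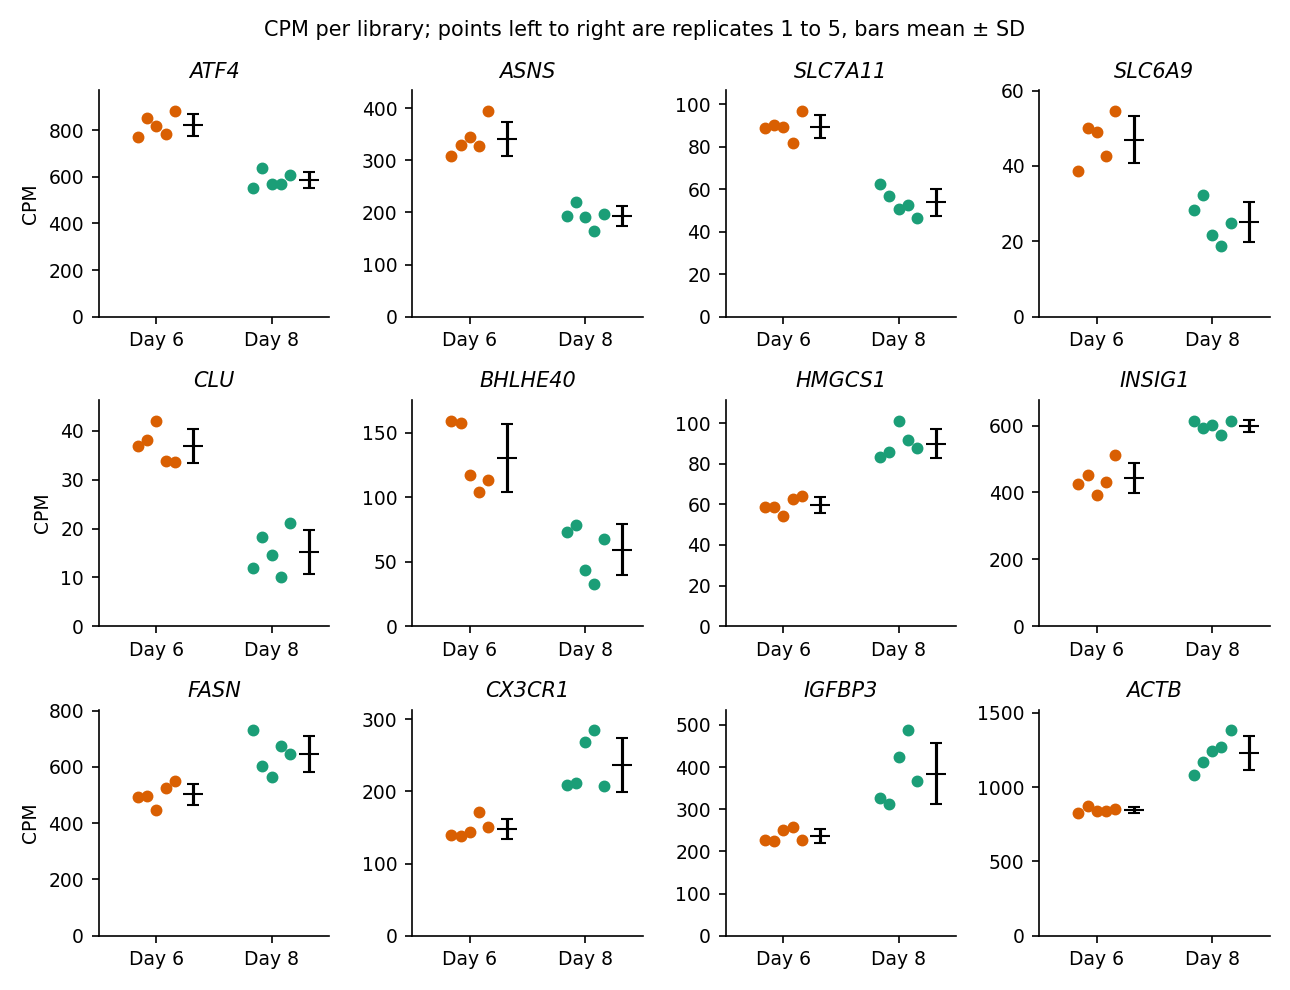
CPM in each of the 5 day 6 libraries (orange) and 5 day 8 libraries (green) for 12 transcripts, with points from left to right for replicates 1 to 5 and black bars for the mean ± SD (n = 5). ATF4, ASNS, SLC7A11, SLC6A9, CLU and BHLHE40 lie lower on day 8 in all 5 libraries, and HMGCS1, INSIG1, FASN, CX3CR1, IGFBP3 and ACTB lie higher in all 5.

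Some ER folding and ERAD genes fell. Of 35 members 14 fell and 0 rose at Q ≤ 0.05 by edgeR (0 higher at an unadjusted p under 0.05 or with DESeq2), and the median log2 fold change was −0.19, with 34 of the 35 below 0. The share called lower over all transcripts tested was 1.53%. ERN1 (IRE1), the ER sensor that splices XBP1 mRNA, was at 584, 604, 548, 527 and 585 CPM on day 6 and 430.2, 416, 354, 346 and 346 CPM on day 8. SEL1L, the scaffold of the HRD1 ubiquitin ligase in ERAD, was at 241, 237, 228, 256 and 256 CPM and 169, 184, 155, 151 and 169.9 CPM. Both separated the days, with log2 fold changes of −0.59 (SE 0.08) and −0.56 (SE 0.06). The ERAD component HERPUD1 fell by 0.37 (SE 0.06, adjusted p = 7.91e-05, edgeR). Chaperones of the ER lumen were among those that fell. HSPA5 (BiP) went from 1524 ± 30.3 CPM to 1301 ± 47.4 CPM, HSP90B1 (GRP94) from 1619.6 ± 66.9 CPM to 1363 ± 72.99 CPM, and DNAJC3, an inhibitor of PERK, from 104 ± 3.96 CPM to 87.9 ± 2.93 CPM. Their falls were 0.23, 0.25 and 0.24 on the log2 scale (SE 0.05, 0.05 and 0.05), and the days did not overlap. XBP1 was the member with the highest value, at 0.09 (SE 0.05, adjusted p = 0.508, edgeR), and its unspliced and spliced forms are not separate in these counts. NFE2L1 (NRF1), the transcription factor that restores proteasome subunits after inhibition, fell from 411 ± 13.2 CPM to 275 ± 30.8 CPM (−0.58, SE 0.06, adjusted p = 2.2e-08, edgeR). Proteasome subunits had 0 calls by edgeR, with medians of 0.02 over 21 subunits of the 19S particle and 0.07 over 17 of the 20S particle, among which are the immunosubunits induced by interferon. At an unadjusted p under 0.05, 3 of the 19S were higher and 1 lower and 1 of the 20S was higher, and DESeq2 called 1 of the 19S higher. VCP and NPLOC4, which extract ERAD substrates, had log2 fold changes of 0.05 (SE 0.07) and 0.00 (SE 0.05). With single libraries left out, 10 to 14 ER members fell, and without both replicates 3 and 4 of day 8 the number was 8. SEL1L was chosen after its values were seen.

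Most cholesterol genes rose. Of 25 members of the synthesis and uptake list, 14 rose and 0 fell at Q ≤ 0.05 by edgeR (0 lower at an unadjusted p under 0.05 or with DESeq2), the median log2 fold change was 0.29, and 24 were above 0. The share called higher over all transcripts tested was 1.03%. HMGCS1, which starts the mevalonate pathway, was at 58.8, 58.5, 54.4, 62.6 and 64.2 CPM on day 6 and 83.5, 85.7, 101, 91.5 and 87.7 CPM on day 8. The 5 day 8 libraries were all above those of day 6, and the log2 fold change was 0.59 (SE 0.07, adjusted p = 1.45e-07, edgeR). INSIG1, the ER anchor that retains SREBP when sterol is plentiful, was at 425, 453, 392, 431 and 511 CPM on day 6 and 615, 592, 603, 570.3 and 613 CPM on day 8, also without overlap (0.44, SE 0.06). The squalene epoxidase SQLE rose by 0.36 (SE 0.07) and the farnesyl diphosphate synthase FDPS by 0.42 (SE 0.07) on the log2 scale. Both separated the days and were chosen after their values were seen. STARD4, a sterol carrier, was the member with the lowest value, at −0.03 (SE 0.10). The number that rose was 11 to 15 with each library left out in turn.

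Fatty acid synthesis genes rose in part, with 6 of 15 higher and 0 lower at Q ≤ 0.05 by edgeR (1 lower at an unadjusted p under 0.05, 0 with DESeq2) and a median of 0.11. Of all transcripts tested, 1.03% were called higher. FASN, the fatty acid synthase, was at 493, 495, 447, 526 and 550.0 CPM on day 6 and 731, 605, 566, 675 and 648 CPM on day 8, without overlap (0.36, SE 0.07, adjusted p = 0.00098). ACLY, which makes cytosolic acetyl-CoA, rose by 0.27 (SE 0.05) and the desaturase SCD by 0.24 (SE 0.05). The desaturases FADS1 and FADS2 rose by 0.23 (SE 0.05) and 0.39 (SE 0.07), with overlap between the days. SREBF1, the SREBP gene that drives this list, rose from 453 ± 16.8 CPM to 529 ± 31.6 CPM (0.23, SE 0.05). The elongase ELOVL6 was at −0.17 (SE 0.07, adjusted p = 0.196, edgeR). The 6 calls were made in every fit that left out 1 library, and 5 without both replicates 3 and 4 of day 8, where SREBF1 did not pass (adjusted p = 0.0854, edgeR). The letters TCACNCCAC, with which a sterol response element is written, stood in 1.15% of all RefSeq promoters, in 1 of 18 matched promoters of the cholesterol list and in 0 of 14 of the fatty acid list. The absence of these exact letters says nothing about SREBP binding.

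Together the ATF4, synthetase and ER lists held 94 transcripts, of which 54 were among the 275 that fell (19.6%) and 1 among the 186 that rose. The cholesterol and fatty acid lists held 40, of which 20 were among the 186 that rose (10.8%) and 0 among those that fell. These lists were chosen with earlier results of the data known, and the shares describe them.

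**Figure D4:**
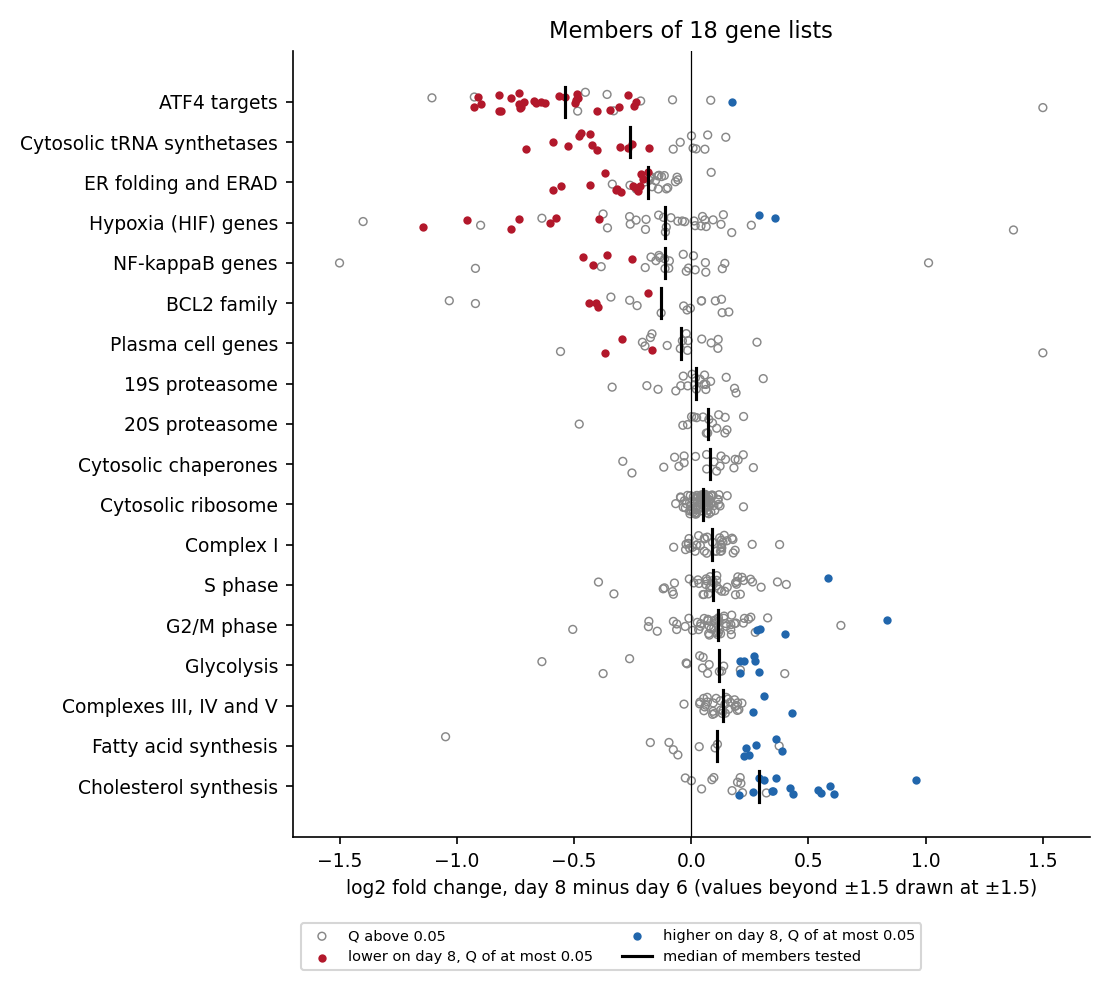
Log2 fold change of day 8 minus day 6 (x axis, values beyond ±1.5 drawn at ±1.5) for the members of 18 gene lists (y axis, points spread vertically for legibility). Filled points passed Q ≤ 0.05 by edgeR and vertical bars are list medians, which run from −0.54 for ATF4 targets to 0.29 for cholesterol synthesis.

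The neighbouring steps of the time course show how the day 8 values sit among the other days. From day 4 to day 6, 32 of 39 ATF4 targets rose and 0 fell (median 0.68) by edgeR, in a comparison in which 6.09% of all transcripts were called higher and 5.98% lower. From day 8 to day 10, 28 rose and 2 fell (median 0.51), against 5.08% higher and 4.97% lower among all transcripts. These comparisons share the day 6 and day 8 libraries with the one described here, so their values are given side by side and are not independent. The ATF4 score averaged 6.38 ± 0.07 on day 6 and 5.85 ± 0.15 on day 8 (mean log2 CPM, SD, n = 5). It had been 6.90 ± 0.05 on day 0, 4.84 ± 0.04 on day 2, where it was lowest, and 5.72 ± 0.10 on day 4, and it was 6.37 ± 0.07 on day 10. Relative to day 0, 26 members were lower on day 6 and 31 on day 8, with medians of −0.63 and −0.99, where 17% and 18.6% of all transcripts were called lower. The log2 fold changes of ATF4 mRNA itself were 0.66 in the step ending on day 6, −0.48 in the one described here and 0.18 in the step after day 8. For ASNS the 3 steps were 0.86, −0.82 and 0.98, and for SLC6A9 1.03, −0.89 and 1.52. Of the synthetases 13 rose and 1 fell in the step ending on day 6, and 14 rose and 1 fell in the step after day 8 (medians 0.24 and 0.42). Of the ER list 23 rose and 1 fell in the latter (median 0.27).

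The cholesterol score averaged 5.77 ± 0.09 on day 6 and 6.07 ± 0.03 on day 8. Before and after them it was 5.95 ± 0.09 (day 4) and 5.81 ± 0.07 (day 10), and it had been 5.29 ± 0.04 on day 0. In the step ending on day 6, 1 member rose and 10 fell, where 6.09% of all transcripts were called higher and 5.98% lower. After day 8, 13 fell (median −0.28), where 4.97% of all transcripts were called lower. Against day 0, 21 of 25 were higher on day 8 and 0 lower (median 0.69), where 18.2% of all transcripts were called higher. The per-library scores of the list were 5.71, 5.74, 5.67, 5.79 and 5.91 on day 6 and 6.08, 6.05, 6.08, 6.05 and 6.12 on day 8. They did not overlap, and the day 8 libraries were closer together than those of day 6. The ATF4 scores were 6.34, 6.42, 6.38, 6.29 and 6.48 on day 6 and 5.85, 6.06, 5.77, 5.65 and 5.92 on day 8, also without overlap.

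**Figure D5:**
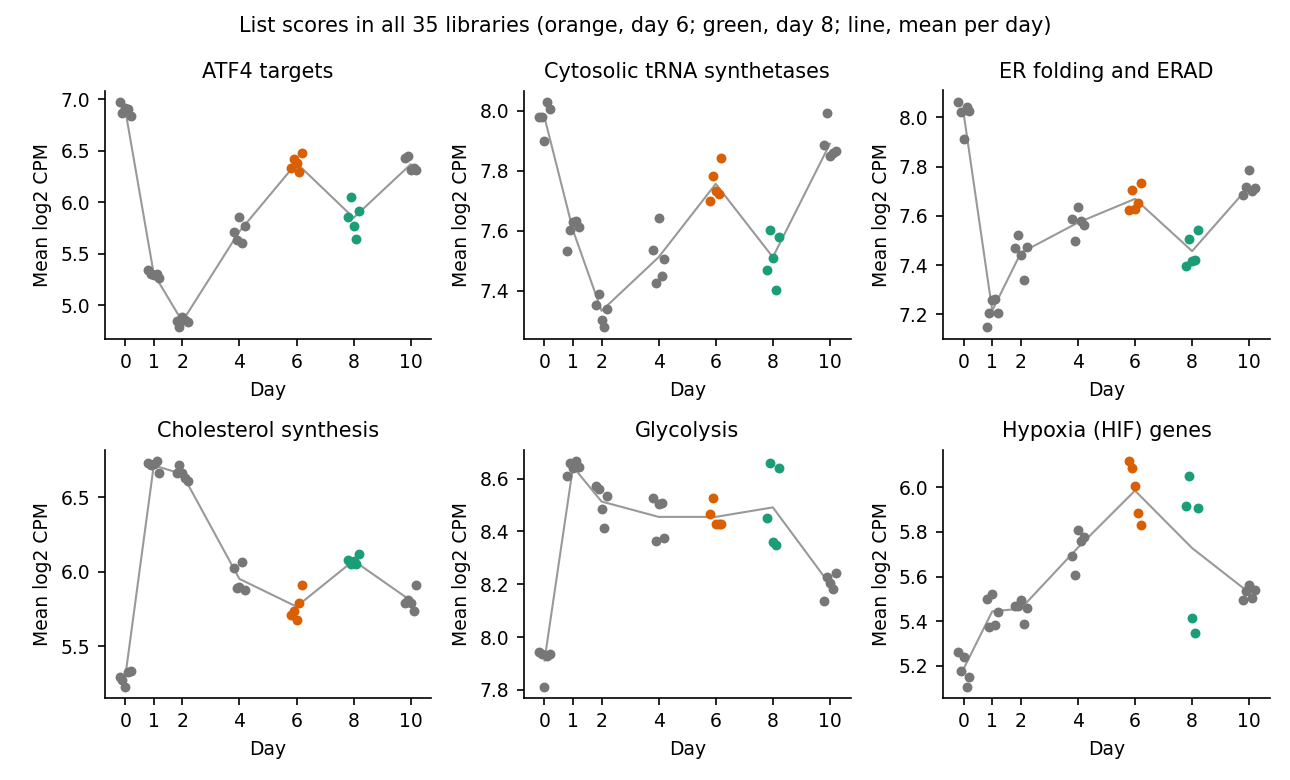
Mean log2 CPM over the members of 6 gene lists (y axis) in each of the 35 libraries by day (x axis), with day 6 in orange, day 8 in green and a line through the mean of each day. The ATF4 score falls from 6.38 on day 6 to 5.85 on day 8 and stands at 6.37 on day 10, the cholesterol score goes from 5.77 to 6.07 and 5.81, and the hypoxia scores of day 8 split into 3 libraries above 5.9 and 2 at 5.35 and 5.41.

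Hypoxia genes differed among the libraries of day 8. Of 39 genes known to be raised by HIF in low oxygen, 7 fell and 2 rose at Q ≤ 0.05 by edgeR (median −0.11). The shares over all transcripts tested were 1.53% lower and 1.03% higher. The number that fell was 4 without replicate 3 of day 8, 4 without replicate 4, 10 without replicate 2 and 3 without both 3 and 4, where the median of the list was 0.03. BHLHE40, a transcriptional repressor of circadian and metabolic genes, was at 159.6, 158, 117, 104 and 114 CPM on day 6 and at 72.99, 78.9, 43.6, 32.99 and 67.8 CPM on day 8. The days did not overlap, replicates 3 and 4 were the lowest, and the log2 fold change was −1.14 (SE 0.17, adjusted p = 2.09e-05, edgeR). DDIT4 (REDD1), an mTORC1 inhibitor also counted among the ATF4 targets, was at 722, 757, 585, 440.4 and 543 CPM and 371, 406, 378, 253 and 381 CPM, a log2 fold change of −0.77 (SE 0.15). VEGFA, the angiogenic growth factor, was at 259, 284, 287, 236 and 248 CPM and 249, 214, 167, 179 and 193 CPM. Its fall of 0.39 (SE 0.09) overlapped and did not pass without replicate 3, without replicate 4 or without both of day 8. The peptide hormone ADM fell by 0.58 (SE 0.14) and the oxygen sensor EGLN3 by 0.60 (SE 0.16), and neither passed without replicate 3, 4 or both of day 8 or without replicate 1 or 2 of day 6, nor EGLN3 without replicate 3 of day 6. GBE1, the glycogen branching enzyme, rose by 0.36 (SE 0.05, adjusted p = 8.09e-06, edgeR). DDIT4, VEGFA, ADM and EGLN3 were chosen after their values were seen. The glucose transporter SLC2A1 was low in the same libraries, at 67.6, 92.7, 39.7, 40.3 and 86.4 CPM on day 8 against 91.7, 78.1, 72.4, 80.6 and 67.8 CPM on day 6 (−0.26, SE 0.15, adjusted p = 0.46, edgeR). SLC2A3 had a log2 fold change of −0.64 (SE 0.20, adjusted p = 0.0715, edgeR). The letters ACGTG or GCGTG, the core of the hypoxia response element, stood in 27 of 32 matched promoters of the list, in 48.4% of all promoters and in 58.0% of those matched to tested transcripts, in 7 of 8 members past Q and in 20 of 24 others. What made replicates 3 and 4 of day 8 differ was not tested.

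Of 21 glycolytic genes, 6 rose and 0 fell at Q ≤ 0.05 by edgeR (median 0.12), where 1.03% of all transcripts rose and 1.53% fell. At an unadjusted p under 0.05, 2 were lower, and DESeq2 called 1 lower. The rises lay between 0.21 and 0.29 on the log2 scale. PGK1, which yields ATP in lower glycolysis, was at 1231, 1339, 1216, 1283 and 1268 CPM on day 6 and 1434, 1611, 1467, 1507 and 1611 CPM on day 8, without overlap (0.27, SE 0.05). The pyruvate kinase PKM rose by 0.27 (SE 0.06) and the mutase PGAM1 by 0.23 (SE 0.05). The number that rose was 3 without replicate 4 of day 6, and 1 member fell without replicate 1 of day 8 or with the replicate block and 2 without replicate 2 of day 8. The scores of the list were 8.36 and 8.35 in replicates 3 and 4 of day 8, below all 5 libraries of day 6 (8.43 to 8.53), and 8.45 to 8.66 in the other 3. From day 8 to day 10, 14 of the 21 fell and 0 rose, in a comparison that shares the day 8 libraries. In that step 4.97% of all transcripts were called lower and 5.08% higher. TXNIP, a glucose-responsive inhibitor of glucose uptake, was at 2474 ± 285 CPM and 2030.4 ± 212 CPM (−0.28, SE 0.09, adjusted p = 0.0698, edgeR).

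Few subunits of respiratory complexes III and IV and of the ATP synthase passed. Of 34 members 3 rose and 0 fell at Q ≤ 0.05 by edgeR (0 lower at an unadjusted p under 0.05 or with DESeq2), the median was 0.13, and 33 were above 0. Among all transcripts tested 1.03% rose and 1.53% fell. The list scores were 6.79 to 6.90 on day 6 and 6.80, 7.01, 7.02, 7.02 and 7.14 in replicates 1 to 5 of day 8, so that replicate 1 overlapped with day 6. Retained-intron transcripts, which are incompletely spliced, took 6.16% to 7.11% of the counts on day 6. On day 8 they took 7.06%, 5.51%, 6.02%, 6.43% and 5.31%, highest where the score was lowest and lowest where it was highest. Day 6 did not follow this order. There replicate 3 had both the highest share (7.11%) and the highest score (6.90), and replicate 1, with the lowest score (6.79), had a share of 6.605%. The part of retained-intron transcripts in the result was not tested. The 3 were subunits of the ATP synthase. ATP5G1, a copy of its rotor subunit c, was at 49.9, 53.6, 57.9, 51.5 and 60.03 CPM on day 6 and 72.3, 73.5, 73.3, 68.8 and 79.7 CPM on day 8, without overlap (0.43, SE 0.08). ATP5J and ATP5G3 rose by 0.31 (SE 0.06) and 0.26 (SE 0.06), and ATP5G3 did not pass without both replicates 3 and 4 of day 8 (adjusted p = 0.0741, edgeR). ATP5G1 and ATP5G3 encode the same mature protein from different genes, and reads they share could be divided between them. Without replicate 1 of day 8, 9 members rose, and with DESeq2 7 did. Complex I had 0 calls by edgeR and 0 by DESeq2, 8 members higher at an unadjusted p under 0.05, and a median of 0.09. The share of mitochondrially encoded counts was 5.641% to 7.656% on day 6 and 5.76% to 8.13% on day 8.

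Survival and signaling genes moved in small numbers. Their counts stand beside 1.03% of all transcripts tested that rose and 1.53% that fell. BCL2, the antiapoptotic protein, was at 487, 472, 445, 461 and 505 CPM on day 6 and 357, 412, 355, 331 and 341 CPM on day 8, without overlap (−0.40, SE 0.06, adjusted p = 6.08e-06, edgeR). Of 19 BCL2 family genes 4 fell at Q ≤ 0.05 by edgeR (median −0.13). The other 3 were MCL1 (−0.18, SE 0.05), the survival factor of myeloma cells, and the proapoptotic PMAIP1 (−0.41, SE 0.11) and HRK (−0.44, SE 0.12). Calls of the family numbered 1 without replicate 2 of day 6 or replicate 3 of day 8, and 2 without replicate 1, 4 or 5 of day 6 or replicate 4 or 5 of day 8. Without both replicates 3 and 4 of day 8, BCL2 alone was called. In the NF-κB list 4 of 26 fell. TNFAIP3 (A20), an inhibitor of the pathway, was at 54.7, 55.7, 50.8, 58.3 and 56.7 CPM on day 6 and 42.6, 39.2, 37.9, 40.6 and 40.6 CPM on day 8, without overlap (−0.46, SE 0.07, adjusted p = 5.29e-05, edgeR). The subunit NFKB2 fell by 0.25 (SE 0.06), and without replicate 4 of day 8 the list had 2 calls. Without both replicates 3 and 4 of day 8 TNFAIP3 alone was called, and NFKB2 was not (adjusted p = 0.187, edgeR). The list scores of these libraries, 4.61 and 4.61, lay below day 6 (4.76 to 4.90), while those of the other 3 were 4.84 to 4.92. In the plasma cell list 3 of 20 fell, namely HERPUD1, the transcription factor IRF4 (−0.29, SE 0.06) and the coactivator POU2AF1 (−0.17, SE 0.04). POU2AF1 lost its call in 7 of the 10 fits that left out 1 library, with RLE size factors and without both replicates 3 and 4 of day 8, and without replicate 5 of day 6 HERPUD1 alone was called. Of 9 genes of the MAF list, which holds MAF and its targets in myeloma, 2 rose and 1 fell (median −0.03). The chemokine receptors CX3CR1 and CCR1 rose. CX3CR1 was at 139, 138, 143, 171 and 150.1 CPM on day 6 and 209, 212, 269, 285 and 207 CPM on day 8. CCR1 was at 134, 126, 157, 155 and 131 CPM and 179, 191, 221, 239.5 and 230.4 CPM. Both lay higher in all day 8 libraries, by 0.68 (SE 0.08) and 0.60 (SE 0.08) on the log2 scale. DEPTOR, an inhibitor of mTOR, fell by 0.20 (SE 0.05, adjusted p = 0.0165, edgeR), and did not pass without replicate 5 of day 6 or replicate 1 of day 8.

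Cell cycle genes had medians slightly above 0. Of 54 G2/M genes 4 rose at Q ≤ 0.05 by edgeR (median 0.11), and of 43 S-phase genes 1 rose (median 0.09). Over all transcripts tested 1.03% rose, and the S-phase count was near that share. The G2/M number was 1 without replicate 3 of day 6, replicate 3 of day 8 or both replicates 3 and 4 of day 8, 2 without replicate 4 of either day and 8 with DESeq2. The S-phase number was 6 without replicate 2 of day 8, 3 without replicate 5 of day 6 and 0 without replicate 1, 2 or 3 of day 6 or replicate 3, 4 or both of day 8. Of the 47 lists, 23 had no member past Q ≤ 0.05 by edgeR, among them cytosolic ribosomal proteins, cytosolic chaperones and tricarboxylic acid cycle enzymes. Of their 463 members (repeats counted), 68 were at an unadjusted p under 0.05 and 16 were called by DESeq2. Over all transcripts, 2438 of 17999 were at an unadjusted p under 0.05, and DESeq2 called 738 of 10321.

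Of the 23 transcripts past the 2-fold cutoff, 8 fell and 7 rose with a mean log2 CPM above 0 and without overlap between the days. CLU, the extracellular chaperone clusterin (chromosome 8, 27596917 to 27614700), was at 36.96, 38.1, 42.1, 33.9 and 33.6 CPM on day 6 and 11.9, 18.3, 14.6, 10.2 and 21.1 CPM on day 8. The highest day 8 library was below the lowest day 6 library, and the log2 fold change was −1.29 (SE 0.13, adjusted p = 2.47e-09, edgeR). CLU fell at the neighbouring steps too, with log2 fold changes of −1.43 in the one ending on day 6 and −1.29 in the one after day 8. MUC21, a membrane mucin, was at 3.45, 4.25, 3.28, 3.96 and 5.17 CPM on day 6 and 0.873, 1.603, 1.202, 1.13 and 1.15 CPM on day 8 (−1.72, SE 0.33, adjusted p = 0.00112, edgeR), after a change of 2.58 from day 4 and before one of 1.95 to day 10. INHBE, an activin subunit, was at 12.2, 13.8, 9.83, 7.49 and 14.6 CPM and 4.71, 5.18, 6.31, 3.95 and 4.41 CPM (−1.23, SE 0.18). INHBC, its neighbour on chromosome 12, had a log2 fold change of −1.60 (SE 0.44) and lost its call in 8 of the 10 fits that left out 1 library, replicates 1 and 2 of day 8 being the exceptions. SNTB1, a syntrophin of the membrane skeleton, was at 50.3, 46.8, 42.5, 41.9 and 46.8 CPM on day 6 and 22.7, 25.03, 18.6, 20.3 and 24.32 CPM on day 8 (−1.04, SE 0.09, adjusted p = 3.59e-10, edgeR). PIP5KL1, a lipid kinase relative, fell by 1.04 (SE 0.13) and the antimicrobial peptide LEAP2 by 1.20 (SE 0.28), the latter not passing without replicate 3 of day 6.

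The rises past 2-fold were in transcripts of low level. MYOC, the secreted protein myocilin, was at 12.3, 6.84, 9.51, 10.6 and 5.89 CPM on day 6 and 19.9, 23.3, 21.2, 14.8 and 18.8 CPM on day 8 (1.12, SE 0.24, adjusted p = 0.00399, edgeR). PADI2, which converts arginine residues to citrulline, was at 7.802, 8.81, 9.34, 6.61 and 3.303 CPM and 14.8, 14.3, 17.4, 12.7 and 15.3 CPM (1.06, SE 0.24). OLFML2B, an extracellular matrix protein, rose by 1.09 (SE 0.24) and PRAMEF27 by 1.21 (SE 0.25), the latter of a family with near-identical copies between which counts could be divided. These 4 passed with each library left out. GRIN2C (1.01, SE 0.26), KRT81 (1.34, SE 0.38) and RP5-931K24.3 (1.05, SE 0.28) lost the call in 4, 7 and 6 of 10 such fits, each of them without replicate 3 of day 6. GFI1B had 0 counts on day 6 and 13 on day 8, which is at least 4.51-fold higher against a floor of 3 counts over the group. IL1B had 0 and 16 counts (at least 5.55-fold) and XXbac-BPG246D15.9 0 and 66 (at least 22.9-fold). IL1B and XXbac-BPG246D15.9 overlapped between the days and lost the call in 6 and 7 of 10 fits. These 3 were near the detection limit. The remaining 5 of the 23 were HOXB9, THUMPD2, MAP2 and GRIK1, which were lower, and DNAAF3, which was higher. They lost the call in 6, 7, 8, 1 and 7 of the 10 fits, and all but GRIK1 overlapped between the days. All 8 were chosen after their values were seen. Without both replicates 3 and 4 of day 8, INHBC, LEAP2, PADI2, GRIN2C, KRT81, RP5-931K24.3, IL1B, HOXB9, THUMPD2, MAP2 and DNAAF3 did not pass.

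Below 2-fold, further transcripts were among the 10 rises or falls of smallest p. LTF, the iron-binding lactoferrin, was at 194, 214, 217, 201 and 243 CPM on day 6 and 109.7, 125, 122, 146 and 135 CPM on day 8 (−0.74, SE 0.06, adjusted p = 4.11e-11, edgeR). The membrane protein stomatin, STOM, was at 387, 431, 402, 404 and 426 CPM and 227, 307, 265, 238 and 274 CPM (−0.64, SE 0.06, adjusted p = 8.19e-10, edgeR). Neither overlapped. IGFBP3, a carrier of insulin-like growth factors, rose from 226, 224, 249.6, 258 and 226 CPM to 327, 313, 424, 488 and 367 CPM (0.70, SE 0.09, adjusted p = 5.37e-07, edgeR). Replicates 3 and 4 of day 8 were its highest, and the lowest day 8 library was still above all of day 6. ARF3, a vesicle transport GTPase, rose by 0.40 (SE 0.06, adjusted p = 3.36e-06, edgeR).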

How the data were processed

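Total RNA of RPMI-8226 subcultures was sequenced in 35 directional libraries. The authors deposited estimated counts per gene symbol and transcript biotype, made with kallisto 0.44.0 against GENCODE transcripts of GRCh38.p12 with GC correction and collapsed to genes by tximport, which corrected for transcript length. The values are whole numbers without scaling for library size. Protein-coding rows with a count in any library were kept (17999 of 19665). Day was fitted as a factor over all 35 libraries with edgeR 4.0.16 in R 4.3.3 (TMM, glmQLFit, glmQLFTest), and day 8 was contrasted with day 6 with Benjamini–Hochberg adjustment. Calls required Q ≤ 0.05, and deregulated transcripts also a log2 fold change beyond ±1. The method was tested on simulated counts. Log2 CPM had a prior count of 2, and list scores used the 12301 transcripts passing filterByExpr. No set test was run.

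Members of the comparison follow from the day labels. The 47 gene lists and the rule for named genes were written with earlier results of these data known. The rule covered rises and falls by fold, by p and by abundance, the extremes of each list, and genes the study names. Genes outside it are marked in the text, and some that it covers are not reported here. Positions came from GENCODE release 44 and promoters from RefSeq (GRCh38.p14). The tables hold no sequencing batch or date. No other column of sample values was left out.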

Additional observations from a re-analysis of the deposited data

Results flagged for a closer look

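Among 276 groups of 5 libraries examined for the named transcripts, list scores and library totals and shares, 17 held a library that lay far from the other 4 (Dixon's criterion, 95% level). Chance flags about 1 in 20 such groups. On day 6, PRAMEF27 was at 1.535 CPM in replicate 1 against 3.114 to 3.671 in the others, and PKM was at 3389 CPM in replicate 2 against 3097 to 3180. Replicate 5 of day 6 held 5 of the values. SPP1 was at 236.5 CPM there against 362.4 to 401.7, HMOX1 at 5.744 against 10.74 to 11.47, FDPS at 170.8 against 137.1 to 146.4, DEPTOR at 198.9 against 169.3 to 174.8 and PCK2 at 91.91 against 74.18 to 79.29.

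On day 8, replicate 1 had 49.76 CPM of PIP5KL1 against 33.2 to 35.11, 371.2 CPM of XBP1 against 418.9 to 434.2 and 28.98 CPM of ATP5I against 39.07 to 42.44. Replicate 2 had 184.1 CPM of MTHFD2 against 160 to 166.1, 254 CPM of ACLY against 270.3 to 276.3 and 0.1233 CPM of MAP2 against 0. Replicate 3 had 0.1502 CPM of GRIK1 and 0.3005 CPM of FGF21 against 0 in the others, which are single or few counts. Replicate 4 had 252.6 CPM of DDIT4 against 371 to 405.8 and 585.2 CPM of SREBF1 against 508.1 to 521.4.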

How the results depend on the processing

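No named transcript past Q changed sign. The medians of 17 of the 47 lists took both signs over the settings, among them hypoxia genes (−0.17 to 0.03), plasma cell genes (−0.08 to 0.0018) and the MAF list (−0.07 to 0.0091). Of 104 named transcripts past Q, 80 passed with each of the 10 libraries left out and 77 under every setting that gave an adjusted p, apart from leaving out 2 libraries together. Rises past 2-fold (11) were 7 with only days 6 and 8 fitted, 4 with DESeq2, 4 beyond a log2 fold change of ±2, 7 without both replicates 3 and 4 of day 8, and 5 to 12 with single libraries left out. Falls past 2-fold (12) were 7 with DESeq2, 2 beyond a log2 fold change of ±2, 7 without both replicates, and 6 to 21 with single libraries left out. Replicate 3 of day 6 gave the lowest numbers (5 and 6), replicates 1 and 2 of day 8 gave 19 and 21 falls, and replicate 1 of day 8, replicate 2 of day 6 and replicate 5 of day 6 gave 6, 6 and 7 rises. At Q alone, the 186 rises became 294 with a filter on low counts, 91 with only days 6 and 8, 391 with DESeq2, 94 without both replicates 3 and 4 of day 8, and 123 (without replicate 3 of day 6) to 264. The 275 falls became 163 with only days 6 and 8, 125 without both replicates, and 181 (without replicate 1 of day 6) to 280. DESeq2 gave no adjusted p for 13 of the 23 transcripts past 2-fold, so these could not be called there. The other causes were not tested. Of the 461 calls, 445 were shared with DESeq2, 436 with RLE factors and 457 with the filter. Fewer were shared with only days 6 and 8 fitted, namely 238, or 277 with the replicate block as well. With 1 library left out 311 to 393 were shared, and without both replicates 3 and 4 of day 8, 204.

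Same-numbered libraries of the days did not deviate together (r from −0.019 to 0.018, 0 of 5 closest to their own number). These correlations cannot show whether same-numbered libraries came from the same subculture. With only days 6 and 8 fitted, calls numbered 254 without the replicate block and 332 with it. The replicate block gave 490 calls (449 shared), and 114 rises with only days 6 and 8 fitted. Counts near 0.1 CPM rest on single reads, and whether changes of low transcripts under 2-fold were detectable at this depth was not tested.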

Other observations

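ACTB, the cytoplasmic β-actin often used as a reference transcript, was at 826, 874, 838, 842 and 856 CPM on day 6 and 1084, 1169, 1242, 1271 and 1385 CPM on day 8, and rose without overlap (0.54, SE 0.07, adjusted p = 1.06e-06, edgeR). VASP, which promotes actin filament growth, rose by 0.38 on the log2 scale (SE 0.08) and the capping protein CAPZB by 0.25 (SE 0.06), and both were chosen after their values were seen. The γ-actin ACTG1 rose by 0.23 (SE 0.06) and did not pass in 5 of the 10 fits with 1 library left out, those without replicates 3, 4 or 5 of day 6 or replicates 2 or 5 of day 8.

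SPP1, the secreted protein osteopontin, was at 396, 399, 402, 362 and 237 CPM on day 6 and 573, 708, 578, 453 and 792 CPM on day 8 (0.79, SE 0.13, adjusted p = 7.28e-05, edgeR), with replicate 5 of day 6 far below the other libraries. EIF2S2, the β subunit of eIF2, fell by 0.29 (SE 0.05), and UGGT1, which checks glycoprotein folding in the ER, by 0.38 (SE 0.06), both without overlap. JUND and RHOB were the 2 of 30 immediate-early genes that rose, by 0.33 (SE 0.07) and 0.45 (SE 0.09), where 1.03% of all transcripts tested rose. SPP1, EIF2S2 and UGGT1 were chosen after their values were seen.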
